A study of Mus musculus with 6 samples.

Results

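The genes encoding the proteins of the cytosolic ribosome were compared between the aortas of Mymsl knockout (KO) mice, in which a long noncoding RNA gene is inactivated, and those of wild-type (WT) controls. They were taken as the rows whose symbols follow the Rpl and Rps naming pattern, together with Rplp0, Rplp1, Rplp2 and Rpsa and without rows named as pseudogenes. This gave 81 of 53735 rows, 49 for the large and 32 for the small ribosomal subunit. RNA was sequenced from Mymsl KO and from Mymsl WT animals with 3 libraries each, and per the labels it came from smooth muscle cells of the aortic media. The labels give no age, sex, strain or further allele. They do not describe how the KO allele was made, and the design text speaks of 3 pairs of mice. They do not say whether each library stands for a single animal, so p-values reflect library-to-library spread, which may be technical. No row is labelled Mymsl, and the knockout itself was not analysed here.

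Ribosomal proteins fold around ribosomal RNA to form the large subunit, which makes the peptide bond, and the small subunit, which reads the messenger RNA. Their messenger RNAs are short, abundant and made in nearly every cell. Most belong to the TOP class, whose 5′ end is a C followed by a run of pyrimidines. That element lets mTOR signalling and the binding protein LARP1 control their translation together, largely without a change in messenger RNA level. Mammalian genomes also carry many processed pseudogenes of these genes, so their reads are hard to place.

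RefSeq (GRCm38.p6) gave a promoter window for 60 of the 81 genes. Below, 50 bases around the annotated start are printed with 20 bases upstream of it and 30 bases from it onward, on the strand of the gene. They are shown because the TOP-type start is the sequence feature for which this gene family is known. Capitals mark a C with its run of at least 4 pyrimidines that begins within 10 bases of the annotated start. Rpl13a, Rpl28, Rplp2 and Rps19 are among the genes of smallest p in the comparison, and Rps6 and Rpl5 had values below 0.
Rpl13a, chr7:45128716-45128765, minus strand: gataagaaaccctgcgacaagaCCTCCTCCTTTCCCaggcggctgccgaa
Rpl28, chr7:4792945-4792994, plus strand: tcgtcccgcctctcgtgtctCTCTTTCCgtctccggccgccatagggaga
Rplp2, chr7:141447631-141447680, plus strand: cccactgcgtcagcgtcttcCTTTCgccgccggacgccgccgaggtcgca
Rps6, chr4:86857338-86857387, minus strand: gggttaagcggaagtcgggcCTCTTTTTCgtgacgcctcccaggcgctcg
Rps19, chr7:24884572-24884621, plus strand: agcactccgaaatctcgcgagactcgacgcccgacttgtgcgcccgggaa
Rpl5, chr5:107900508-107900557, plus strand: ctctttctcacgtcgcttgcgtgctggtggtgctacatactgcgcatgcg

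A TOP-type run began exactly at the annotated start in 12 of the 60 genes (20%), against 2.49% of 27025 RefSeq genes, and within 10 bases of it in 35 (58.3%), against 30.8%. It was searched on the transcribed strand only, at the first start listed for each gene. Annotated starts can lie some bases from the start used in a tissue. A window without capitals, as in Rps19 and Rpl5, says only that no such run begins within 10 bases of the annotated start. The Rpl5 window itself opens with such a run, 20 bases upstream of that start. The letters CCGGAAG, which ETS-family factors such as GABP recognise, were found on either strand of the 300-base window in 24 of the 60 genes (40%), against 9.12% of all genes. The Sp1-type letters GGGCGG were found on either strand in 35 genes (58.3%), against 35.9%. The median log2 fold change was 0.052 in 32 tested genes with a TOP-type run near the start and 0.051 in 24 without, and 0.054 in 23 with CCGGAAG and 0.051 in 33 without. For GGGCGG the gap was wider, at 0.048 in 34 genes with it and 0.075 in 22 without, and none of these gaps was tested.

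Total counts lay between 20048216 and 25521123 per library. The smooth muscle markers (Acta2, Myh11, Tagln and 7 others) summed to 42564 to 56718 CPM in KO and 51206 to 54750 CPM in WT, with 9 of 10 below 0 in log2 fold change (median −0.14), where CPM is the count scaled to the TMM-normalized library size. Lymphocyte markers summed to at most 0.562 CPM in KO and 1.83 CPM in WT. Heart muscle markers summed to 109 to 176 CPM in KO and 97.6 to 126 CPM in WT, and erythroid markers to 25.7 to 35.5 CPM in KO and 20.3 to 152 CPM in WT. Mitochondrially encoded genes took 18.9%, 10.003% and 13.0% of counts in KO replicates 1, 2 and 3, against 7.84%, 9.02% and 5.66% in WT replicates 1, 2 and 3.

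The ribosomal protein genes lay close together in the 2 genotypes. Of the 81 genes, 77 passed the filter on low counts, and none of them was called in either direction by edgeR's quasi-likelihood test with Benjamini-Hochberg adjustment over all 14145 tested genes. Over all genes, edgeR called 0 higher (0%) and 1 lower (0.00707%). At an unadjusted p under 0.05, 2 ribosomal protein genes were higher (2.6%) and 0 lower, against a background of 6.8% higher and 7.76% lower over all genes. DESeq2, which gave an adjusted p for 76 of them, and limma-voom called none either, against 0.728% higher and 1.49% lower over all genes in DESeq2, and 0% higher and 0.00707% lower in limma-voom. The smallest adjusted p among the genes was 0.328 in edgeR, 0.330 in DESeq2 and 0.335 in limma-voom. Most ribosomal protein genes had a mean count of 1000 or more. Among all 4105 tested genes at that level, edgeR gave 202 higher and 656 lower at an unadjusted p under 0.05.

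Fold changes were small and mostly of one sign. In 71 of 77 genes (92.2%) the log2 fold change of KO over WT was above 0, against 52.5% of all tested genes, and in 6 (7.79%) it was below 0, against 47.5%. The median was 0.053 and the range −0.065 to 0.25. The median over all tested genes was 0.012, and over the 4105 tested genes with a mean count of 1000 or more it was −0.048. Of these 4105 genes, 1519 lay above 0 and 2586 below. Without KO replicate 3 the split of the ribosomal protein genes was 45 above and 32 below 0, with a median of 0.013. Leaving out KO replicate 1 gave a median of 0.097, and leaving out WT replicate 1 gave 0.096. Every KO library stood above every WT library in 8 genes (10.4%), against 10.5% of all genes, and in 0 genes did every KO library stand below, against 11.3%. The first of these shares is near that of all genes. Of the 4105 genes with a mean count of 1000 or more, every KO library stood above in 315 and below in 879.

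**Figure D1:**
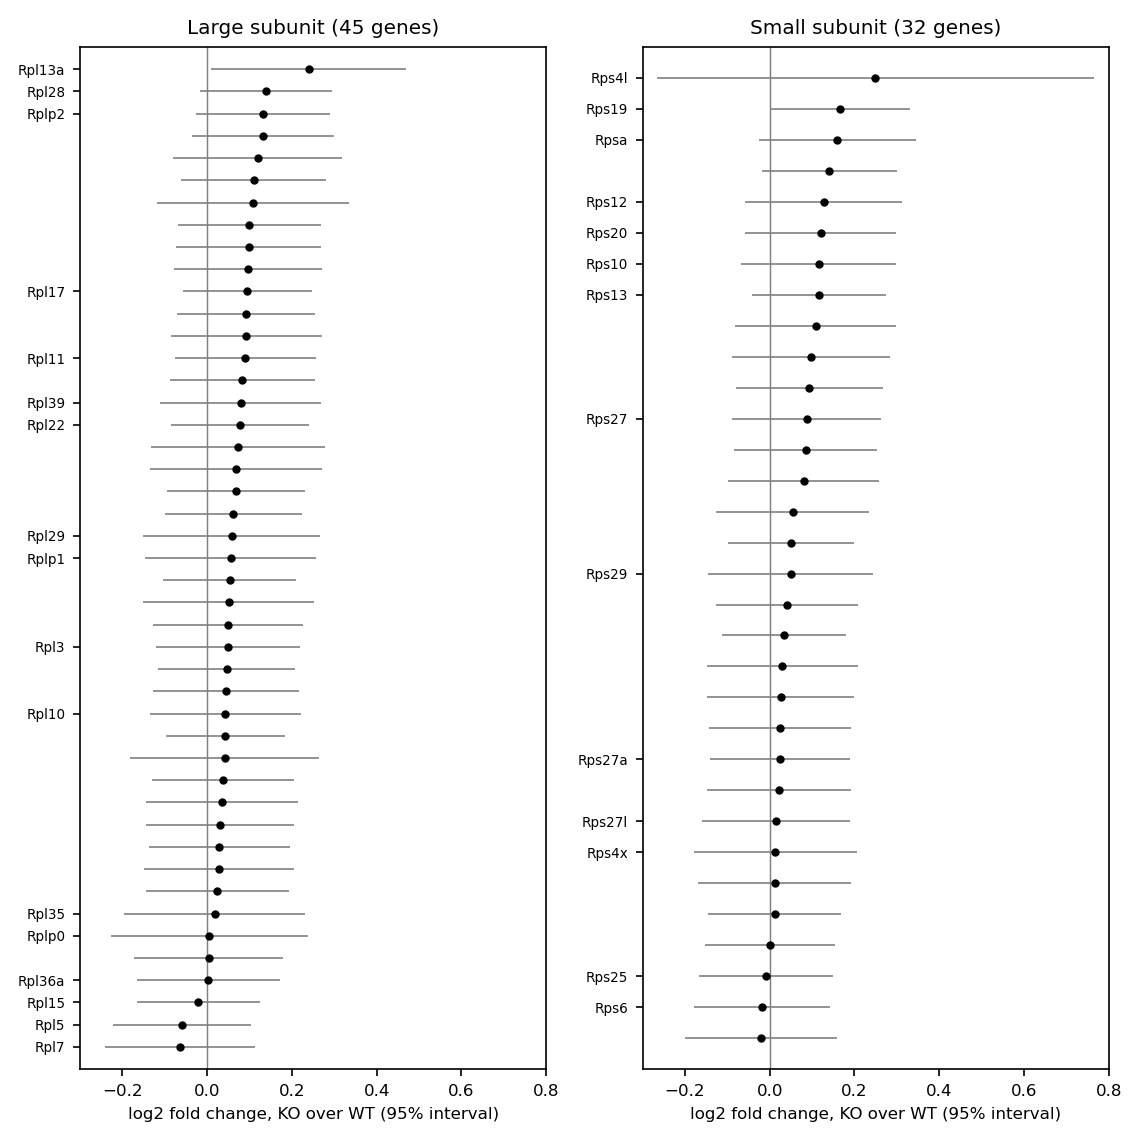
Log2 fold change of KO over WT (dots) with 95% intervals from edgeR (bars, not adjusted for the number of genes) for the 45 large and 32 small subunit genes tested, ordered by value; names are given for genes described in the text. Nearly all bars span 0, and those of Rpl13a and Rps19 begin just above it.

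The precision was enough to bound larger differences, but not small ones. The standard error of the log2 fold change had a median of 0.075 over the 77 genes, against 0.074 over 4030 other genes with a mean count of 1000 or more. The 95% interval lay wholly within a 1.1-fold change in either direction for 0 genes, within 1.2-fold for 49 and within 1.5-fold for 76. Rps4l, with 140 to 228 counts per library, was the exception at 1.5-fold. In GENCODE M21 it is typed as a transcribed processed pseudogene, so it is a member by its symbol rather than as a coding gene.

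The genes moved together from library to library, and that movement crossed the genotypes. The median log2 deviation from the WT mean was −0.022, 0.049 and 0.14 in KO replicates 1, 2 and 3, against 0.061, −0.028 and −0.031 in WT replicates 1, 2 and 3. In KO replicates 1, 2 and 3, 30, 56 and 77 of the 77 genes lay above the WT mean, and in WT replicates 1, 2 and 3, 76, 14 and 11 did. KO replicate 3 was therefore the highest library and WT replicate 1 the next, and KO replicates 1 and 2 both lay within the range of WT. Over all tested genes the library medians lay between −0.0043 and 0.011.

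**Figure D2:**
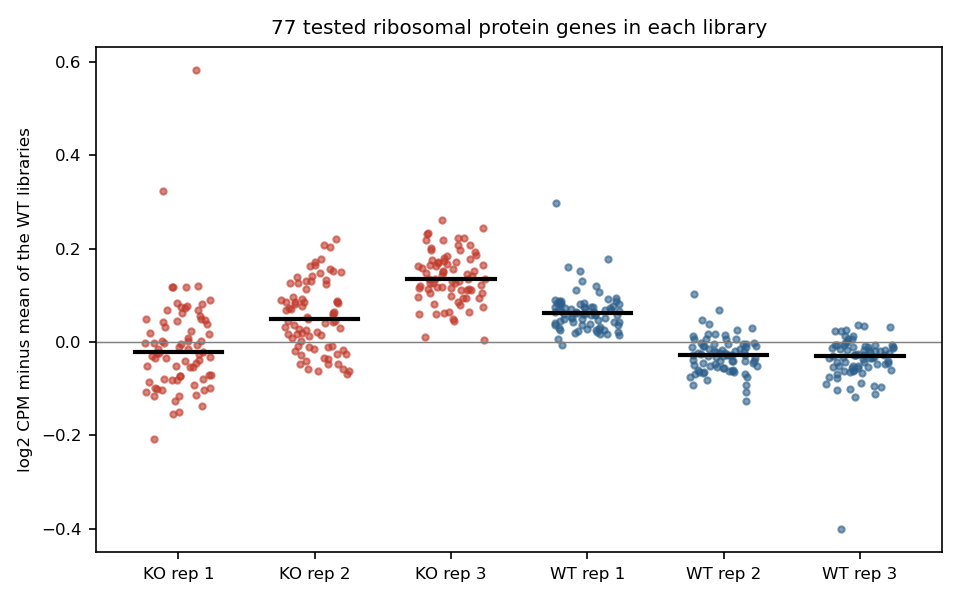
Each point is 1 of 77 ribosomal protein genes, plotted as its log2 CPM minus its mean over the WT libraries, for the 3 KO libraries (red) and the 3 WT libraries (blue), with the horizontal bar at the median. The clouds of KO replicate 3 and WT replicate 1 lie almost wholly above 0, and those of WT replicates 2 and 3 mostly below it.

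Of the marker lists, the endothelial and fat lists placed KO replicate 3 first and WT replicate 1 next, and most other lists had another order. Endothelial markers summed to 495, 471 and 780 CPM in KO replicates 1, 2 and 3, against 533, 441 and 411 CPM in WT replicates 1, 2 and 3, and 9 of the 10 had a fold change above 0. Fat markers summed to 157, 116 and 248 CPM in the same KO libraries, against 211, 159.5 and 114 CPM in WT, with 7 of 8 above 0. In both lists most markers thus had fold changes above 0, though the sums overlapped between genotypes. Only the top libraries followed the order seen for the ribosomal protein genes. KO replicate 2 stood above KO replicate 1 for those genes and below it in both lists. Macrophage markers summed to 114, 54.5 and 139 CPM in KO and 96.4, 58.4 and 90.0 CPM in WT, with 9 of 10 above 0, and there KO replicate 1 came after KO replicate 3. Adventitial fibroblast markers were highest in KO replicate 1, at 3908, 2055 and 3218 CPM in KO and 3077, 2180 and 3132 CPM in WT. Of these 8 markers, 7 had a fold change above 0. Schwann cell markers were lowest in KO replicate 3, at 435, 495 and 425 CPM in KO and 451, 512 and 499 CPM in WT. Here 4 of 8 lay above 0. Heart muscle and erythroid markers did not follow the order of the ribosomal protein genes either. Of the tested heart muscle markers, 7 of 8 lay above 0, with a median log2 fold change of 0.74. Of the erythroid markers, 0 of 5 did, with a median of −1.47. Lymphocyte markers, at 0.361, 0.430 and 0.562 CPM in KO and 1.83, 0.238 and 0.538 CPM in WT, had WT replicate 1 first. Markers of smooth muscle, the main cell type, had median log2 deviations from the WT mean of −0.20, 0.040 and −0.19 in KO replicates 1, 2 and 3, against −0.048, 0.067 and −0.0029 in WT, so KO replicates 1 and 3 were the lowest. The part of these cells in the ribosomal protein levels was not tested. In bulk RNA, a change in the mix of cells and a change in RNA per cell cannot be told apart.

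As a share of all counts, the 81 genes held 2.41% ± 0.168 in KO and 2.37% ± 0.107 in WT (SD, n = 3 each). The single values were 2.23%, 2.44% and 2.56% in KO replicates 1, 2 and 3, against 2.48%, 2.27% and 2.36% in WT, so the groups overlapped. With mitochondrially encoded and hemoglobin rows left out of the total, the shares were 2.74%, 2.71% and 2.94% in KO against 2.69%, 2.49% and 2.50% in WT. On that base every KO library lay above every WT library, by 0.235 percentage points in the mean rather than 0.0375. The total over which the share is taken thus decides whether the groups overlap.

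The 8 genes of smallest p above 0 come from both subunits. Rpl13a, a large subunit protein that in human cells also leaves the ribosome to silence translation of inflammatory messages, had 18.8, 17.5 and 17.04 CPM in KO replicates 1, 2 and 3, against 16.8, 13.9 and 14.5 CPM in WT. All KO values lay above all WT values, by a small gap to WT replicate 1, and the log2 fold change was 0.24 ± 0.099 (SE; edgeR adjusted p = 0.328). Rps19, a small subunit protein whose loss of one copy causes the anaemia of Diamond and Blackfan in people, had 178, 187 and 198 CPM in KO, against 177, 165 and 159.8 CPM in WT. The lowest KO and the highest WT library nearly met, and the log2 fold change was 0.17 ± 0.071 (edgeR adjusted p = 0.342). Rpl28, a large subunit protein, had 209, 234 and 227 CPM in KO, against 205, 205 and 198 CPM in WT. Its log2 fold change was 0.14 ± 0.067 (edgeR adjusted p = 0.374), with groups that just separated. Rps13, a small subunit protein, had 145, 151 and 150.4 CPM in KO, against 143, 142 and 127 CPM in WT, and its groups just separated too (0.12 ± 0.068, edgeR adjusted p = 0.444). Without WT replicate 3 its log2 fold change was 0.066. Rpl17, chosen after its values were seen as another gene whose groups did not overlap, had 361, 366 and 391 CPM in KO, against 356, 348 and 343 CPM in WT.

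The acidic stalk of the large subunit, which recruits translation factors, is built from Rplp0, Rplp1 and Rplp2. Rplp2 had 196, 192 and 207 CPM in KO, against 192, 179.97 and 172 CPM in WT, and the KO values began just above the highest WT value (log2 fold change 0.13 ± 0.068, edgeR adjusted p = 0.393). Rplp1 had 564, 615 and 646 CPM in KO, against 631, 577 and 548 CPM in WT. Its partner Rplp0, the scaffold of the stalk, had 519.8, 639 and 649.9 CPM in KO, against 619, 607 and 576 CPM in WT. Both overlapped between genotypes, with KO replicate 1 low, and their log2 fold changes were 0.055 and 0.005. Differences among the 3 stalk genes were not tested.

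Rpl5 and Rpl11 bind 5S ribosomal RNA and, when ribosome assembly fails, hold the p53 regulator Mdm2. Rpl5 had 314, 329 and 344 CPM in KO, against 353, 325 and 350.0 CPM in WT, with overlap and a log2 fold change of −0.059 ± 0.070 (edgeR adjusted p = 0.714). Rpl11 had 273, 264 and 296 CPM in KO, against 273, 259 and 251 CPM in WT (0.090 ± 0.072, edgeR adjusted p = 0.566; 0.043 without KO replicate 3). The 2 partners thus had opposite signs, each within the spread between libraries. Rpl7, a large subunit protein, had the lowest log2 fold change of all, −0.065 ± 0.076, from 546, 582 and 610.1 CPM in KO against 622, 575 and 621 CPM in WT.

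Among small subunit proteins with further roles, Rps6 is the classical substrate of S6 kinase. It had 229.7, 249.8 and 257 CPM in KO, against 253, 240.1 and 253 CPM in WT, a log2 fold change of −0.018 ± 0.069 (edgeR adjusted p = 0.919). Rpsa, which also acts as a laminin receptor precursor, had 551, 578 and 628 CPM in KO, against 553, 519 and 502 CPM in WT (0.16 ± 0.080, edgeR adjusted p = 0.385). Only the lowest KO and highest WT libraries overlapped, and by under 2 CPM. Rps27a, made as a fusion with ubiquitin, had 285, 278 and 309 CPM in KO, against 299, 276 and 282 CPM in WT (0.024 ± 0.071). Rpl10, which joins the large subunit late in its assembly, had 514, 547 and 575 CPM in KO, against 557, 504 and 526 CPM in WT (0.043 ± 0.076). In both, the groups overlapped.

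**Figure D3:**
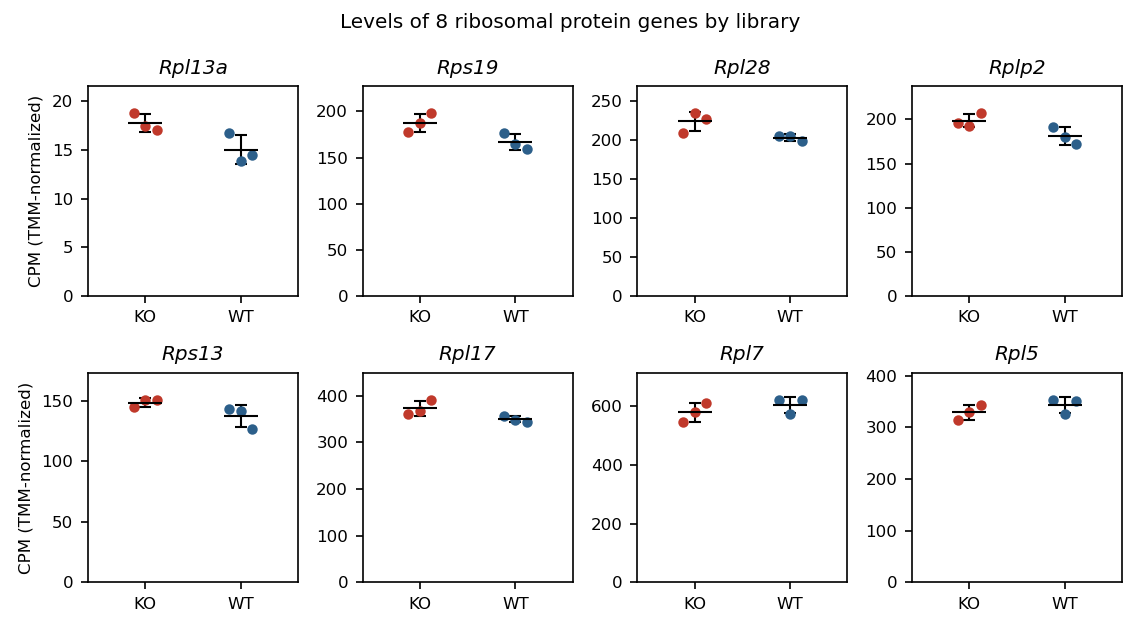
CPM (TMM-normalized, linear axis from 0) of 8 ribosomal protein genes in the KO (red, left) and WT (blue, right) libraries, with mean and SD (black, n = 3). In the first 6 genes every KO point lies above every WT point, and in Rpl7 and Rpl5 the groups overlap with a lower KO mean. These 6 are among the only 8 of the 77 tested genes (10.4%) with such a separation, against 10.5% of all tested genes. Of the 4105 tested genes with a mean count of 1000 or more, 315 had it.

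Tissue-restricted paralogues were close to absent. Rpl3l, which replaces Rpl3 in heart and skeletal muscle, had 0, 0 and 1 counts in KO replicates 1, 2 and 3, against 1, 0 and 1 counts in WT. Rpl10l, a testis copy of Rpl10, had 0 counts in all 6 libraries, and Rpl39l, a copy known from testis, had 4, 0 and 5 counts in KO, against 1, 2 and 0 counts in WT. A count of 0 allows up to 3 counts, or 0.130 to 0.155 CPM in a KO library and 0.119 to 0.125 CPM in a WT library, for counting error only. Rpl3l stood at or below this limit also in KO replicate 1, where heart muscle markers were highest (176 CPM).

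Their ubiquitous partners were abundant and overlapped between genotypes. Rpl3, which lies near the peptidyl transferase centre, had 437, 476 and 495 CPM in KO, against 461, 456 and 445 CPM in WT. Rpl39 had 163, 147 and 166 CPM in KO, against 164, 146 and 141 CPM in WT. The log2 fold changes were 0.049 for Rpl3 and 0.079 for Rpl39. Rps27l, a p53-responsive copy of Rps27, had 58.3, 57.8 and 60.7 CPM in KO, against 64.6, 55.7 and 54.7 CPM in WT, and Rps27 had 397, 359.9 and 410.4 CPM in KO, against 381, 366 and 352 CPM in WT. Rpl22l1, the paralogue of Rpl22 that the naming rule leaves out, had 60.1 ± 4.96 CPM in KO and 57.6 ± 1.39 CPM in WT, and Rpl22 had 218 ± 11.4 CPM in KO and 207 ± 9.66 CPM in WT (SD, n = 3 each). None of these partners was called, and neither were Rps27l and Rpl22l1, while Rpl3l, Rpl10l and Rpl39l were too low to be tested.

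Although a ribosome holds most of these proteins once, the counts per kilobase of messenger RNA varied widely. Over the 77 tested genes, levels lay between 11.8 and 1220 CPM per kilobase in KO, with a median of 370.0, and between 9.94 and 1174 in WT, with a median of 357. Rplp1, Rps27, Rps12 and Rps29 were the highest on this scale. Rps4l, Rpl13a, Rps20 and Rpl35 were the lowest. For Rps20 the annotated messenger RNA of 3706 bases is long for its coding length of 357, which lowers the value per kilobase.

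Rpl24, a gene needed for normal large subunits, failed the filter with 10, 6 and 4 counts in KO and 6, 4 and 7 counts in WT, or 0.480 and 0.344 CPM per kilobase. In GENCODE M21 on GRCm38 it lies on chromosome 16 from 55966275 to 55971435 on the plus strand, and 71.5% of the exon bases of its messenger RNA are also exons of another gene on the same strand, Gm28037. Among the 81 genes, 2 others shared 50% or more of their exon bases in this way, Rpl13a (59.3%, with Gm45713 and Mir5121; chromosome 7, 45125558 to 45128761, minus strand) and Rps10 (91.6%, with RPS10-NUDT3). These 3 genes had 0.344, 14.4 and 218 CPM per kilobase in WT, all below the median of 357. The annotation release behind the counts, and how reads shared by 2 genes were treated, are not stated in the labels or the file header, so the counts of these 3 genes are uncertain, and with them the smallest p, that of Rpl13a.

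**Figure D4:**
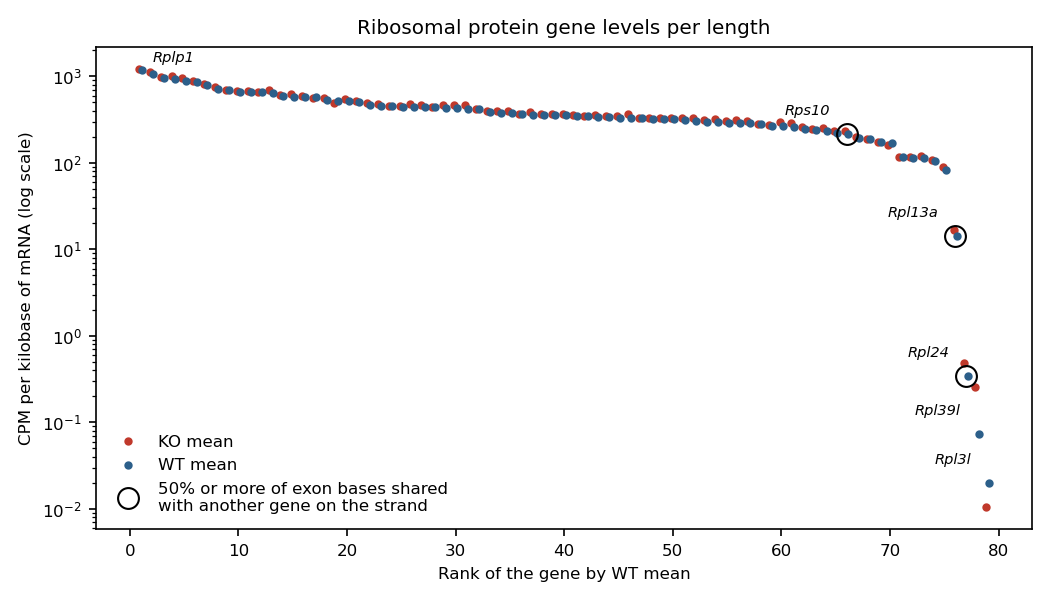
CPM per kilobase of annotated messenger RNA (log axis) for coding ribosomal protein genes above 0, ranked by their WT mean, with KO means in red and WT means in blue. Open circles mark the 3 genes with 50% or more of their exon bases shared with another gene on the strand. Rpl13a (14.4 in WT) stands below the main group. Rpl24 (0.344) lies far lower, toward the paralogues Rpl39l (0.0733) and Rpl3l (0.0201).

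Near-identical copies limit the counts too. Of the 50-base windows of a gene's messenger RNA, a median of 53.6% also occurred in the transcript of some other annotated gene, with a range of 0% to 98.6%, the highest in Rps27. The other genes here include those that overlap on the same strand, as for Rps10 (92.4% of windows) and Rpl13a (57.4%). A shared window therefore need not lie in a copy elsewhere. How reads that map to several places were counted is not stated in the labels or the file header. The 32 tested genes under 50% had a median log2 fold change of 0.048, and the 45 at 50% or more had 0.057. Only 4 tested genes lay under 10%, so most genes of both sets share sequence. The part of shared reads in the small difference was not tested. The 255 rows named as ribosomal protein pseudogenes held 830, 928 and 1049 counts in KO replicates 1, 2 and 3, against 991, 956 and 884 counts in WT, from libraries of unequal depth. Relative to the counts of the genes themselves this was 0.186%, 0.182% and 0.176% in KO, against 0.169%, 0.165% and 0.159% in WT, so every KO library lay above every WT library. Of these rows 17 were tested, and 16 lay above 0, with a median log2 fold change of 0.24 and none called in edgeR. At an unadjusted p under 0.05, 1 was higher (5.88%, against 6.8% of all genes) and 0 lower.

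The balance between subunits was similar. Large subunit genes had a median log2 fold change of 0.055 (42 of 45 above 0), and small subunit genes 0.050 (29 of 32 above 0). Within a library, the median log2 CPM of large subunit genes minus that of small subunit genes was −0.15 ± 0.045 in KO and −0.18 ± 0.022 in WT (SD, n = 3 each). The values were −0.19, −0.15 and −0.10 in KO replicates 1, 2 and 3, against −0.17, −0.17 and −0.21 in WT, and the groups overlapped.

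Other genes of translation showed no call in edgeR. Of 8 ribosomal genes outside the naming rule that were tested, 5 lay above 0, with a median log2 fold change of 0.020 and 0 at an unadjusted p under 0.05. Rpl7l1, a paralogue of Rpl7 and the gene of smallest p among them, had 58.3, 62.2 and 58.9 CPM in KO, against 66.2, 63.1 and 66.5 CPM in WT, and every KO library lay below every WT library (−0.13 ± 0.055, edgeR adjusted p = 0.347). Fau, whose product is a small subunit protein, had 148, 166 and 169 CPM in KO, against 152, 151 and 139 CPM in WT (0.13 ± 0.074, edgeR adjusted p = 0.436). Of 8 elongation factor genes, 5 lay above 0, with a median of 0.048 and 1 at an unadjusted p under 0.05. This was Eef1d, the exchange factor subunit for elongation factor 1, at 134 ± 5.44 CPM in KO and 120.4 ± 4.06 CPM in WT (0.16 ± 0.061, edgeR adjusted p = 0.314). Of 39 initiation factor genes, 20 lay above and 19 below 0 (median 0.0018), and 1 in each direction had an unadjusted p under 0.05. Eif3f and Eif3a, subunits of the same initiation complex, had opposite signs, at 0.16 ± 0.056 and −0.19 ± 0.073 (edgeR adjusted p = 0.282 and 0.303). The shares of these lists at an unadjusted p under 0.05 rest on 1 gene or none in each direction, against 6.8% higher and 7.76% lower over all genes. Neither limma-voom nor DESeq2 called any of them, with an adjusted p in DESeq2 for 5 of the 8 ribosomal, 7 of the 8 elongation and all 39 initiation genes.

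Genes of ribosome assembly, and of the control of TOP messages, lay on both sides of 0. Of 56 ribosome biogenesis genes, 24 lay above and 32 below 0, with a median of −0.033, and 1 higher (1.79%) and 4 lower (7.14%) had an unadjusted p under 0.05, neither share above that of all genes (6.8% and 7.76%). Polr1a, the largest subunit of RNA polymerase I, had 20.6, 18.5 and 19.3 CPM in KO, against 24.5, 22.1 and 28.0 CPM in WT, and the groups did not overlap (−0.35 ± 0.10, edgeR adjusted p = 0.273). Among 19 genes of mTOR signalling and TOP control, 10 lay above 0, with a median of 0.024, and 1 higher (5.26%) and 3 lower (15.8%) had an unadjusted p under 0.05. Rps6kb2, which encodes an S6 kinase, had 33.3, 25.5 and 25.04 CPM in KO, against 20.6, 19.9 and 15.8 CPM in WT. Its groups did not overlap, and it did not pass in edgeR (0.57 ± 0.15, adjusted p = 0.264) but passed in DESeq2 (adjusted p = 0.0364), as the only gene of these 2 lists to do so. Larp4, which binds poly(A) tails, had 35.4, 41.6 and 37.2 CPM in KO, against 47.2, 48.4 and 44.1 CPM in WT (−0.29 ± 0.079, edgeR adjusted p = 0.264).

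Set beside 2 similar gene families, the ribosomal protein genes differed in how the libraries ranked. Mitochondrial ribosomal proteins, which serve the separate ribosome of the mitochondrion, had 63 of 76 genes above 0 and a median log2 fold change of 0.088, with library medians of 0.088, 0.089 and 0.080 in KO replicates 1, 2 and 3, against 0.024, 0.0092 and −0.044 in WT. Nuclear-encoded subunits of oxidative phosphorylation had 60 of 82 above 0 and a median of 0.065, with library medians of 0.043, 0.084 and 0.069 in KO, against 0.026, 0.010 and −0.037 in WT. Mrpl24, a protein of the large mitochondrial subunit, had 73.4 ± 2.66 CPM in KO and 63.5 ± 2.03 CPM in WT (0.21 ± 0.056, edgeR adjusted p = 0.264). Ndufab1, the acyl carrier protein of complex I, had 21.8 ± 2.57 CPM in KO and 16.7 ± 1.04 CPM in WT (0.39 ± 0.10, edgeR adjusted p = 0.264). In both families every KO median lay above every WT median, whereas for the cytosolic ribosome they crossed. The difference between families was not tested. Neither family had a gene called in edgeR, DESeq2 or limma-voom, with an adjusted p in DESeq2 for 73 mitochondrial ribosomal and 77 oxidative phosphorylation genes. At an unadjusted p under 0.05, 6 mitochondrial ribosomal genes were higher (7.89%) and 1 lower (1.32%), and 12 oxidative phosphorylation genes were higher (14.6%) and 0 lower, against 6.8% higher and 7.76% lower over all genes.

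Noncoding host RNAs of small nucleolar RNAs, which also begin with a TOP-type sequence, lay above 0 in all 9 tested genes, with a median log2 fold change of 0.22. Snhg12 had 10.5, 9.60 and 10.4 CPM in KO, against 7.68, 8.70 and 7.04 CPM in WT (0.38 ± 0.12, edgeR adjusted p = 0.277). None of the 9 passed in edgeR or limma-voom, nor did any of the 6 with an adjusted p in DESeq2, which gave none for Snhg12. At an unadjusted p under 0.05, 3 were higher (33.3%, against 6.8% of all genes) and 0 lower.

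**Figure D5:**
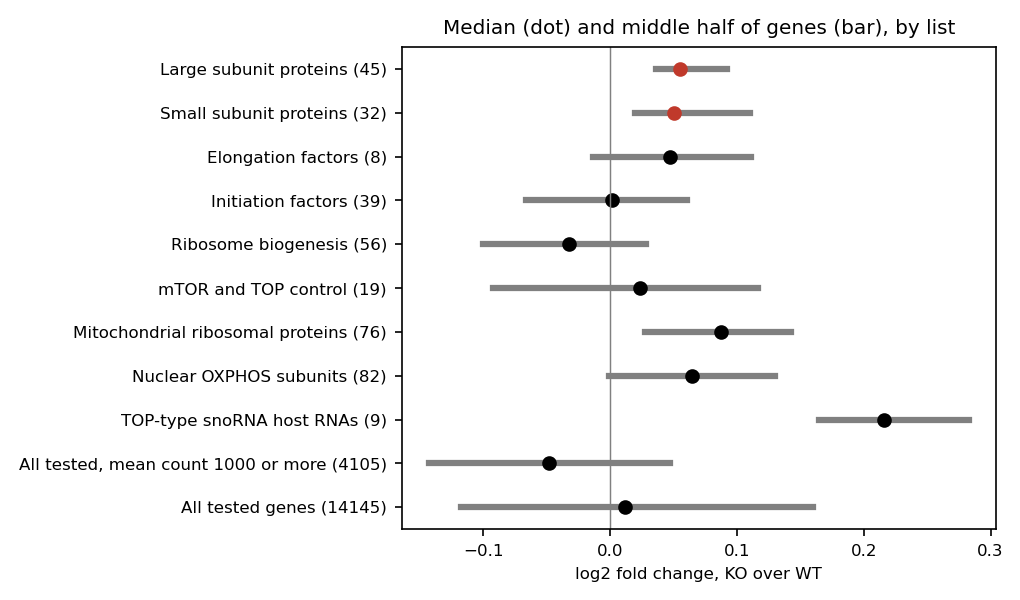
Median log2 fold change of KO over WT (dot) and the middle 50% of the genes (bar) for the 2 ribosomal subunits (red dots) and other gene lists (black dots), with the number of tested genes in brackets. The subunit medians of 0.055 and 0.050 lie between those of all tested genes (0.012) and mitochondrial ribosomal proteins (0.088).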

How the data were processed

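Trimmomatic 0.36, STAR 2.6.0c, Subread 1.6.1 with featureCounts, and build GRCm38 are named in the submitters' processing notes, with no role or order stated. The authors deposited 1 table of unnormalized gene counts. Per the labels, an Illumina TruSeq Stranded mRNA kit was used. For the counting, the sources used here do not give the annotation release, the strand option or the treatment of multi-mapping reads.

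The main test was edgeR 4.0.16 (quasi-likelihood, R 4.3.3) on all 6 libraries, with genotype as the only term, TMM normalization, filterByExpr (minimum count 10, total 15) and Benjamini-Hochberg adjustment over 14145 genes at 0.05. DESeq2 1.42.0 and limma 3.58.1 (voom) were alternatives. P-values are two-sided. Log2 CPM used a prior count of 2. Standard errors are the size of the log2 fold change over the square root of F, and 95% intervals are not adjusted. Members and lists were chosen with earlier results of these data known, so lists carry counts and medians and no test. Lengths, coordinates and overlaps come from GENCODE M21, matched by symbol for all 81 genes. Each length is that of the shortest coding transcript with the principal coding length. The edgeR steps were tested on simulated data.

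Genes were named by a rule: up to 8 members of smallest p per direction, fixed sets of stalk proteins, 5S partners and paralogues, the 4 highest and 4 lowest per kilobase, the most variable, and up to 3 per list. Not all of these are described, and some items are not reported here. Same-numbered KO and WT libraries had correlated deviations of 0.107, 0.134 and −0.056, against −0.283 to 0.179 for differently numbered ones. With such overlap, this check cannot tell whether the pairs of mice were numbered alike. Numbers were not treated as pairs in the main test. No pair of libraries of the same genotype agreed within sampling noise: chi-square per gene was at least 15.2. Pairs of a KO and a WT library were not compared in this way.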

Additional observations from a re-analysis of the deposited data

How the results depend on the processing

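No ribosomal protein gene was called under any of the 15 alternatives. Over all genes, edgeR's 0 higher and 1 lower calls became 67 and 137 in the DESeq2 test and 5 and 4 with no filter; the lower call was lost (0) with the replicate number as a block, and over left-out libraries the counts were 0 to 2 higher and 0 to 1 lower, with 2 higher without KO replicate 2 and 0 lower without WT replicate 1. The replicate block changed no call of a ribosomal protein gene, and their median was then 0.053. The median log2 fold change lay between 0.041 (no filter) and 0.076 (upper-quartile factors) over other settings and between 0.013 and 0.097 over left-out libraries. The difference in share of counts was 0.235 percentage points with mitochondrially encoded and hemoglobin rows left out of the total, against 0.0375, and −0.038 to 0.13 over left-out libraries, below 0 without KO replicate 3 (−0.038) or WT replicate 2 (−0.013). The number of genes whose KO libraries all stood above WT was 8 or 9 under 3 other scalings, added after the data were seen. Of 29 named genes, 11 changed sign under some setting, in 30 of 435 values, at a size of at most 0.054 on the log2 scale and never as a call. With upper-quartile factors these were Rpl15 (0.0027), Rps6 (0.0056) and Rps25 (0.015), and Rps25 was 0.00040 with a mean count of at least 50. Rplp0 was −0.0033 in limma-voom, −0.0069 with no filter and −0.0014 with the block, and Rpl36a was −0.0013 with DESeq2 size factors, −0.0011 in the DESeq2 test and −0.0099 with no filter. Over left-out libraries Rpl15 spanned −0.055 to 0.018, Rps6 −0.052 to 0.027, Rps25 −0.055 to 0.022, Rplp0 −0.053 to 0.10, Rps27a −0.022 to 0.060, Rps27l −0.026 to 0.097, Rps4x −0.052 to 0.069, Rpl36a −0.052 to 0.043, Rps29 −0.0077 to 0.11, Rpl35 −0.054 to 0.096 and Rpl29 −0.0011 to 0.15. The cause of these changes was not tested.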

Other observations

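The ribosomal protein genes of smallest p were unevenly spread over the chromosomes, a pattern seen only after their values were known. Of the 8 with the smallest p, 6 lie on chromosome 7, among them Rpl13a, Rps19 and Rpl28, where 14 of the 77 tested genes lie. On that chromosome every KO library stood above every WT library in 6 ribosomal protein genes, and on the others in 2. The median log2 fold change was the same in both sets, at 0.054 over the 14 and 0.053 over the other 63. Over all tested genes, the median was 0.053 for 929 genes of chromosome 7 and 0.0085 for 13216 others, and every KO library stood above every WT library in 14.7% and 10.2% of them.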
